A study of Saccharomyces cerevisiae with 6 samples.

Results

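Budding yeast (Saccharomyces cerevisiae) treated with azinomycin B at 100 µg/ml was set against untreated yeast of the same A100 and B100 label, 2 arrays against 2. These 4 arrays were chosen by their titles from the 6 arrays of the series. The treated group holds the treated A100 and treated B100 arrays, from cells given 100 µg/ml azinomycin B in a small volume of ethanol, and the control group holds the control A100 and control B100 arrays, from cells to which the labels report no addition. All 4 cultures grew in rich glucose medium (YPD) at 30 °C and 250 rpm to an optical density of 1.0 and for a further 6 h. No strain is named, ethanol is mentioned for treated cells only, and whether each array had a culture of its own is not stated. The p-values therefore cover the spread between these 4 arrays, which may be technical. An array at 10 µg/ml and its control make up the rest of the series. They are in neither group here, but some of their values are set beside those of the 4 arrays, and 1 alternative fit held all 6. The study asked how the stress response of treated yeast differed from control growth.

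Azinomycin B is a natural product that alkylates DNA and links its strands to each other. In budding yeast such lesions are sensed through the kinase Mec1, which activates the kinase Rad53, and Rad53 in turn activates the kinase Dun1. Dun1 lifts the repression of a set of target genes by Crt1 (RFX1) and removes Sml1, an inhibitor of ribonucleotide reductase, the enzyme that makes the deoxynucleotides used for DNA synthesis and repair.

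The mating type of the strain was checked from its defining transcripts. The alpha-cell genes MF(ALPHA)1, STE3 and SAG1 had signals of 5851.0 and 6538.8, 780.2 and 740.8, and 3595.5 and 3525.2 in treated cells, against 6397.9 and 7611.5, 758.0 and 832.8, and 4272.7 and 4139.3 in control cells. In each pair of signals here and in what follows, the A100 array comes first and the B100 array after it. The a-cell receptor gene STE2 had 36.4 and 17.5 in treated cells, against 29.7 and 15.9 in control cells, so all 4 arrays carried the alpha pattern at these genes. Other markers moved, as described further on with the mating genes. Both treated arrays were above both controls in 5 of 7 a-cell markers and below both in 0, beside 26.6% and 19.1% of all genes tested. ASG7, 1 of the 5, was left out of the tests for low signals, with 41.8 and 13.1 in treated cells, against 5.4 and 7.8 in control cells. Of 5 alpha-cell markers, 1 lay above and 1 below in the same way. The 3' over 5' signal ratio of the actin gene ACT1, a sign of RNA quality, was 2.09 and 1.44 on the treated arrays, against 1.69 and 2.05 on the control arrays, and the groups overlapped. For SRB4 it was 6.71 and 3.28 on the treated arrays, against 4.40 and 8.07 on the control arrays, also with overlap. For SPT15 it was 3.77 and 3.96 on the treated arrays, against 4.01 and 5.15 on the control arrays, without overlap.

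The treated A100 array stood apart from the other 3. It correlated with the treated B100 array at r = 0.933 and with the control A100 and B100 arrays at 0.906 and 0.913 across 6956 probe sets, with no p because the probe sets share arrays and base levels. The treated B100 array correlated with the same controls at 0.980 and 0.979, and the controls with each other at 0.979. At 130 and 195 probe sets the treated B100 array differed at least 2-fold from the control A100 and B100 arrays, a number like the 177 by which the controls differed from each other, while the treated A100 array differed from them at 1150 and 1200. Median signals were 142.9 and 124.7 on the treated arrays, against 123.0 and 111.5 on the control arrays. Most results below are therefore given for each treated array, and many also as a mean.

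No probe set passed the test. With limma on log2(signal + 16) and Benjamini-Hochberg adjustment, 0 of 6956 probe sets (0%) had an adjusted p under 0.05, and the lowest adjusted p was 0.633. At an unadjusted p under 0.05, 298 probe sets (4.28%) were higher and 134 (1.93%) lower in treated cells, a total of 432. Of these, 69% were higher with the values as deposited, 53% after quantile normalization and 41.8% after scaling the arrays to a common median, which moved the median difference of all probe sets to -0.13 (log2) from 0.05. Every difference below therefore has an adjusted p of 0.633 or more, and all values are descriptions of 4 arrays. Without the treated B100 array, 1129 probe sets passed (695 higher and 434 lower), with the lone treated A100 array assumed to vary like the controls. Without the treated A100 array, 0 passed and the lowest adjusted p was 0.0825. Without the control A100 or B100 array, 0 passed and 132 and 96 had an unadjusted p under 0.05. The smallest two-sided p that an exact permutation of 2 against 2 arrays can give is 0.333.

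Both treated arrays lay above both controls at 1805 probe sets (25.9%) and below both at 1300 (18.7%). At a distance of at least 2-fold between the nearer treated array and the nearer control, 16 probe sets (0.23%) lay above and 9 (0.129%) below. With only the control B100 array to exceed these were 89 and 25, and with only the control A100 array 59 and 25. The treated A100 array alone was at least 2-fold above both controls at 571 probe sets (8.21%) and below at 275 (3.95%). For the treated B100 array these numbers were 22 (0.316%) and 15 (0.216%). Of the 571, the treated B100 array was not above both controls at 149 (2.14% of all tested), lay above them by under 2-fold at 406 (5.84%) and by at least 2-fold at 16. Of the 275, it was not below both controls at 103 (1.48%), lay below by under 2-fold at 163 (2.34%) and by at least 2-fold at 9.

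**Figure D1:**
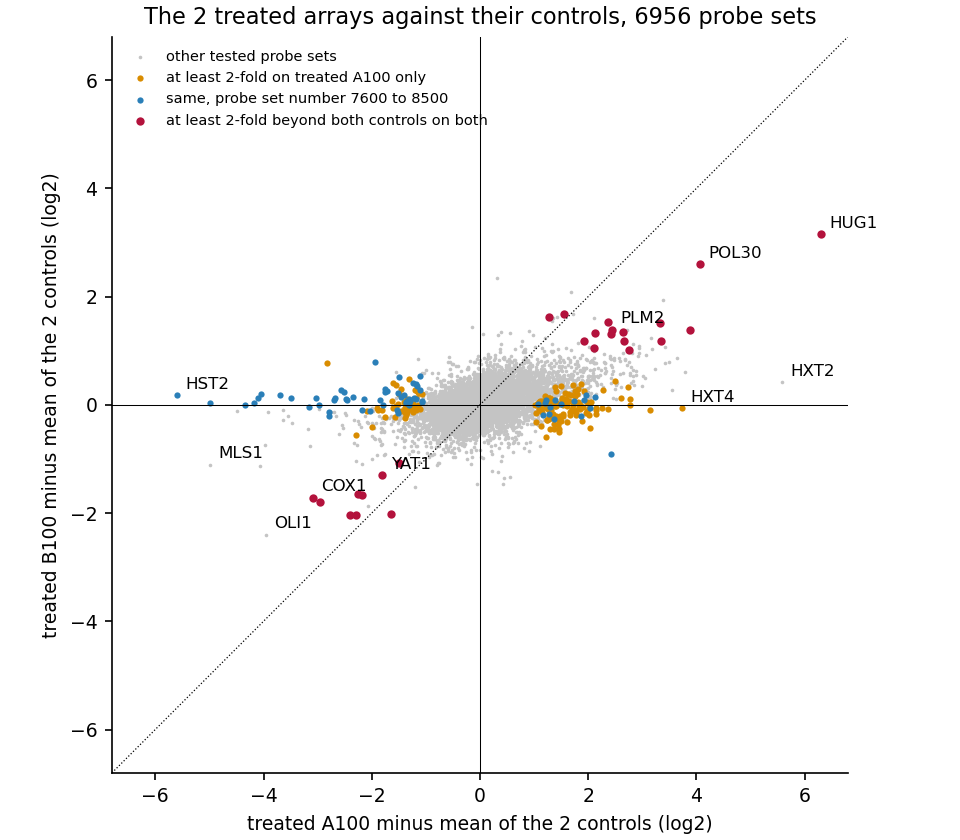
Each point is 1 of 6956 probe sets, with the difference of the treated A100 array from the mean of the 2 controls on the horizontal axis and that of the treated B100 array on the vertical axis, both in log2 units of signal + 16; the dotted line marks equal differences. Probe sets at least 2-fold beyond both controls on both treated arrays are red, and those on the treated A100 array only are orange, or blue where the probe set number lies between 7600 and 8500; the wide horizontal band shows that the treated A100 array differed from the controls far more than the treated B100 array did.

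The largest distance between the groups was that of HUG1, which encodes a small checkpoint-controlled inhibitor of ribonucleotide reductase. HUG1 had signals of 4369.7 and 477.2 in treated cells, against 42.7 and 36.1 in control cells. Both treated arrays were far above both controls, and the treated A100 array was the higher of them. The log2 fold change was 4.73 with an SE of 0.97 (n = 2 each, limma, unadjusted p = 0.0034).

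DUN1 and PLM2, 2 further genes of the DNA damage list, also lay at least 2-fold above both controls. DUN1, the checkpoint kinase named above, had 354.2 and 196.1 in treated cells, against 87.0 and 54.3 in control cells, a log2 fold change of 1.72 (SE 0.37). PLM2, which encodes a forkhead-associated domain protein tied to the G1/S programme and to DNA damage, had 116.8 and 48.5 in treated cells, against 7.8 and 9.5 in control cells, a log2 fold change of 1.91 (SE 0.41), or 0.97 with a pseudocount of 64. Their groups did not overlap, and in both genes the treated A100 array was again the higher treated array.

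The sliding clamp and a subunit of its loader followed. POL30 encodes the clamp (PCNA) that holds DNA polymerases on the template, and RFC5 encodes a subunit of replication factor C, which loads it. POL30 had 466.2 and 158.3 in treated cells, against 5.5 and 22.2 in control cells, a log2 fold change of 3.34 (SE 0.56). Since the control signals are near the floor of the array, its size was 4.47 with a pseudocount of 1 and 2.15 with one of 64. RFC5 had 358.2 and 218.8 in treated cells, against 96.8 and 103.2 in control cells, a log2 fold change of 1.35 (SE 0.30), and stood 0.98 (log2) clear of the controls, just short of the 2-fold distance. Neither gene had overlap between the groups. On the control array titled 10, however, POL30 had a signal of 194.7 and RFC5 one of 177.4, and the POL30 value there was above the 158.3 of the treated B100 array.

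Cytosolic ribosomal protein genes were 4 of the 12 named genes with the widest distance above both controls, beside 74 of the 5135 genes tested. RPS14B, which encodes a protein of the small subunit, had 1532.5 and 328.5 in treated cells, against 133.1 and 140.0 in control cells. RPL27A of the large subunit had 2771.3 and 1268.5 in treated cells, against 424.8 and 598.3 in control cells, and its other probe set lay 2-fold above as well. RPL24A had 4298.2 and 957.7 in treated cells, against 426.9 and 500.0 in control cells, and stood 0.92 (log2) clear of them, short of the 2-fold distance. In these genes the groups did not overlap and the treated A100 array was 2 or more times the treated B100 array. RPS7A had 2781.9 and 982.2 in treated cells, against 394.2 and 462.8 in control cells, but its other probe set had 3177.1 and 304.7 in treated cells, against 644.5 and 527.2 in control cells, with the treated B100 array below both controls. Related ribosomal protein genes share much of their sequence, so their probe sets may read more than 1 of them.

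The remaining genes of these 12 had other roles. ALG14 encodes a subunit of the enzyme that adds the second sugar to the lipid-linked precursor of N-glycans. It had 456.1 and 267.0 in treated cells, against 98.3 and 121.4 in control cells, a log2 fold change of 1.54 (SE 0.33). YGR035C, a gene of unknown function, had 170.7 and 59.8 in treated cells, against 17.3 and 10.9 in control cells. THI72, a transporter related to the thiamine permease, had 139.0 and 119.4 in treated cells, against 50 and 54.8 in control cells, with the treated arrays close to each other. It stood 0.94 (log2) clear of the controls and its probe set carries the suffix f, the array design's mark for probes shared by related transcripts. Its other probe set had 70.5 and 80.0 in treated cells, against 86.7 and 72.0 in control cells, where the groups overlapped.

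GPI12 and PTP2 reached the 2-fold distance with 1 probe set each that was not the brightest of its gene. For GPI12, an enzyme of glycosylphosphatidylinositol anchor synthesis, that probe set had 148.4 and 163.8 in treated cells, against 39.4 and 40.7 in control cells, while the brightest had 773.9 and 548.8 in treated cells, against 583.5 and 474.4 in control cells. For PTP2, a phosphatase that acts on mitogen-activated protein kinases, the signals were 140.3 and 184.2 in treated cells, against 47.5 and 50 in control cells, and those of the brightest probe set were 412.7 and 343.8 in treated cells, against 341.0 and 205.7 in control cells. The probe sets of a gene thus disagreed in size, and in GPI12 the brightest had overlapping groups. RPS9B, a small subunit protein gene, reached 2-fold with 1 of its 2 probe sets. In all, the 16 probe sets held 12 named genes, of which 4 encode ribosomal proteins, and 3 probe sets without a gene name.

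**Figure D2:**
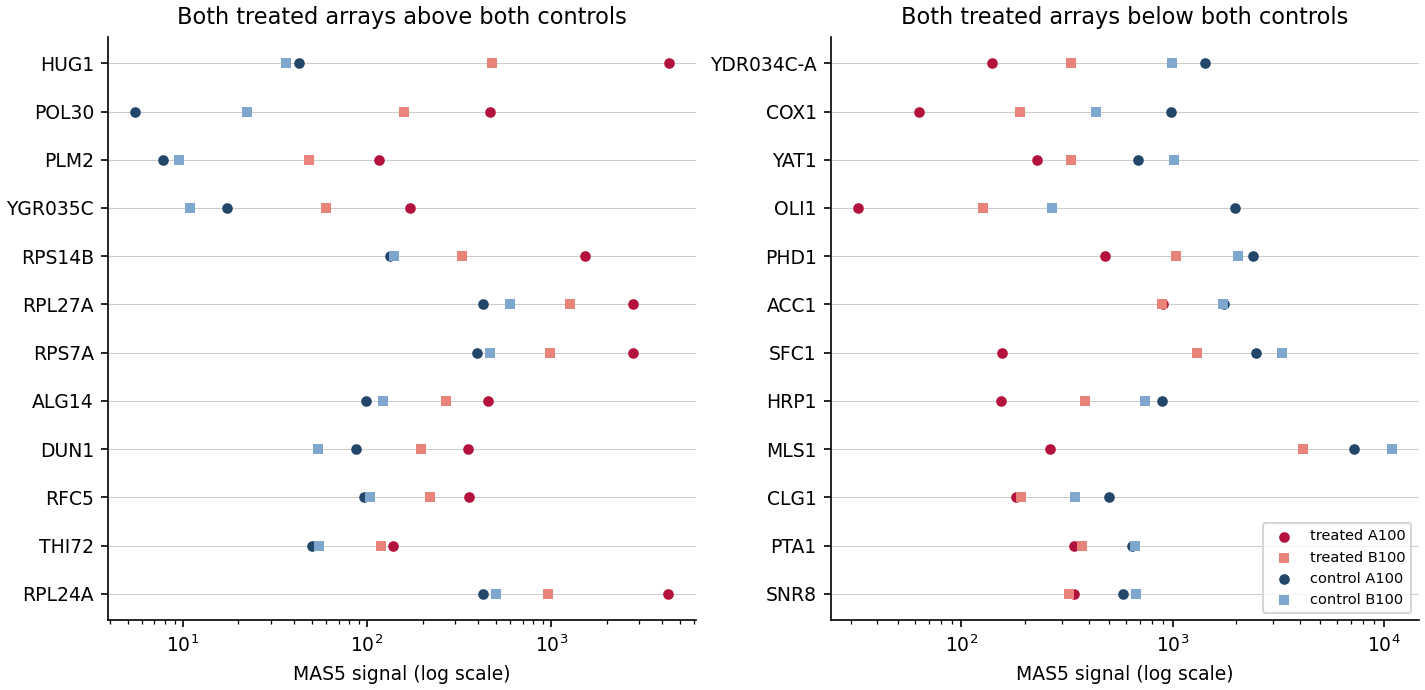
MAS5 signals of each array on a log scale for the 12 named genes whose brightest probe set had the widest distance above both controls (left) and the 12 with the widest distance below (right); each gene has 1 point per treated array (reds) and 1 per control array (blues), with no mean or error bar. In every gene both treated points lie on the same side of both control points, and in most of them the treated A100 point is the farther from the controls.

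Set beside the control array titled 10, which was not used to choose them, 9 of the 16 probe sets had both treated arrays above that control as well and 7 did not. The named genes among the 9 were ALG14, DUN1, GPI12, HUG1, PLM2 and PTP2. Among the 7 were POL30, YGR035C and the 4 ribosomal protein genes. RPS14B, for example, had 1414.7 on the control array titled 10, above the 328.5 of the treated B100 array.

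Some genes lay at a like distance from the controls on both treated arrays. Of the tested probe sets, 62 (0.891%) lay at least 0.5 (log2) above both controls on both treated arrays with those within 0.5 of each other, and 44 (0.633%) lay below in the same way. This class and its genes were chosen after values were seen. BNA4, the kynurenine monooxygenase of NAD synthesis, had 262.7 and 272.7 in treated cells, against 111.2 and 134.0 in control cells. ERP3, a member of the p24 family of vesicle cargo proteins, had 379.9 and 282.6 in treated cells, against 146.8 and 113.9 in control cells. ISD11, which acts in mitochondrial iron-sulfur cluster assembly, had 690.7 and 517.6 in treated cells, against 288.2 and 293.8 in control cells. TLG1, a membrane fusion protein of the Golgi and endosomes, had 351.8 and 299.2 in treated cells, against 173.6 and 172.1 in control cells. In these 4 genes the log2 fold change lay between 0.85 and 1.24, and the groups did not overlap. On the control array titled 10, BNA4 had 264.7 and TLG1 304.7, between their treated values, and ERP3 had 141.2 and ISD11 293.5, below both.

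Below both controls at 2-fold, 3 of the 9 probe sets had a gene name. COX1, the mitochondrially encoded subunit I of cytochrome c oxidase, had 62.9 and 188.4 in treated cells, against 984.9 and 433.9 in control cells, a log2 fold change of -2.40 (SE 0.58). YAT1, a carnitine acetyltransferase of the outer mitochondrial membrane, had 227.2 and 330.6 in treated cells, against 683.3 and 1016.5 in control cells, a log2 fold change of -1.55 (SE 0.32). YDR034C-A, a small open reading frame without a known role, had 139.8 and 330.4 in treated cells, against 1423.4 and 987.2 in control cells, a log2 fold change of -2.37 (SE 0.44). The groups did not overlap in any of the 3. Other probe sets of YDR034C-A had smaller log2 differences of -0.28 and -0.73. COX1 had a further probe set with 40.5 and 28.9 in treated cells, against 38.3 and 19.1 in control cells, where the groups overlapped.

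Only COX1 and YAT1 of these 9 probe sets also had both treated arrays below the control array titled 10. YDR034C-A had a signal of 91.4 there, below both treated arrays. The 6 probe sets without a gene name had signals of 18.7 to 100.1 on the treated arrays, against 77.4 to 463.7 on the A100 and B100 controls, and 21.0 to 40.9 on the control array titled 10. Of the 9, 5 carry the suffix f for shared probes.

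The next genes below both controls fell short of the 2-fold distance. OLI1, the mitochondrially encoded subunit 9 of ATP synthase, had 32.4 and 126.4 in treated cells, against 1969.4 and 267.3 in control cells, so the controls themselves differed widely. PHD1, a transcription factor of filamentous growth, had 477.3 and 1036.8 in treated cells, against 2408.0 and 2044.0 in control cells. HRP1, a subunit of cleavage factor I of mRNA 3' end formation, had 153.9 and 385.5 in treated cells, against 890.5 and 738.1 in control cells. In PHD1 and HRP1 the controls were close to each other and the treated A100 array was the lower treated array.

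ACC1, PTA1, CLG1 and SNR8 had nearly equal values on both treated arrays. ACC1, the acetyl-CoA carboxylase that commits carbon to fatty acid synthesis, had 899.2 and 886.5 in treated cells, against 1743.4 and 1726.1 in control cells, a log2 fold change of -0.95 (SE 0.21). PTA1, a subunit of the cleavage and polyadenylation factor, had 342.2 and 370.8 in treated cells, against 639.5 and 663.9 in control cells, a log2 fold change of -0.84 (SE 0.22). CLG1, a cyclin-like protein that binds the kinase Pho85, had 180.7 and 191.1 in treated cells, against 499.5 and 344.2 in control cells. SNR8, a small nucleolar RNA, had 341.0 and 324.1 in treated cells, against 581.3 and 669.2 in control cells. Groups did not overlap in any of the 4. On the control array titled 10 PTA1 had 349.3, between the 2 treated values, and ACC1 had 4937.6.

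In the DNA damage-induced list, with 22 genes tested, both treated arrays lay above both controls in 8 and below both in 5. Over all 5135 genes tested the shares were 26.6% above and 19.1% below, to be set beside the counts of each list that follows. The median difference of the list was 0.34 (log2) on the treated A100 array and 0.07 on the treated B100 array, beside 0.05 on each array for all genes. Its median of the mean difference was 0.20, and 0.03 after scaling to a common median. Beyond HUG1, DUN1 and PLM2, the 8 were RNR2, RNR3, DIN7, PHR1 and RFX1.

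Within ribonucleotide reductase, the subunits differed. RNR3, the large subunit gene best known for its induction by DNA damage, had 477.9 and 146.5 in treated cells, against 50.3 and 103.8 in control cells. RNR2, a small subunit gene, had 3907.0 and 2548.3 in treated cells, against 2087.3 and 1808.5 in control cells. Neither gene had overlapping groups. On the control array titled 10, RNR2 had 3324.0, between its treated values, and RNR3 had 53.6, below both. RNR4, the other small subunit gene, had 5313.6 and 3192.2 in treated cells, against 3589.2 and 3785.3 in control cells, so that only the treated A100 array was higher. RNR1, the main large subunit gene, had 266.2 and 52.3 in treated cells, against 53.9 and 20.0 in control cells, where the treated B100 array lay between the controls. The mean log2 differences were 1.67 (SE 0.59) for RNR3, 1.47 (SE 0.72) for RNR1, 0.70 (SE 0.28) for RNR2 and 0.16 (SE 0.30) for RNR4; that of RNR4 was -0.03 after scaling to a common median.

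Beside HUG1 and DUN1, which were at least 2-fold above the controls, the other regulators of the reductase lay lower or close to the controls. SML1, the inhibitor protein that Dun1 removes, had 4956.1 and 4395.4 in treated cells, against 5848.4 and 6418.5 in control cells. WTM1, which holds the small subunits in the nucleus, had 3772.2 and 7274.2 in treated cells, against 7500.0 and 8286.9 in control cells, and its relative WTM2 had 286.7 and 464.2 in treated cells, against 568.6 and 469.8 in control cells. Both treated arrays were below both controls in these 3 genes, in WTM2 by a small margin on the B100 array. WTM1 and WTM2 have probe set numbers between 7600 and 8500, a stretch described further on. RFX1, the repressor Crt1, had 385.0 and 370.7 in treated cells, against 334.8 and 367.1 in control cells, and DIF1, which carries the small subunits into the nucleus, had 375.0 and 285.5 in treated cells, against 331.9 and 252.5 in control cells. IXR1, also on the list, had 877.2 and 1416.1 in treated cells, against 1930.0 and 1396.0 in control cells, a log2 difference of -0.55 with overlapping groups. Differences in RFX1 and DIF1 were 0.10 and 0.17 (log2), and both turned negative after scaling to a common median. In the whole reductase list of 13 genes, both treated arrays were above both controls in 5 and below in 4, and the list's median of 0.16 (log2) turned to -0.03 under that scaling.

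Excision repair, recombination and stress members of the damage list did not share a direction. DIN7, a mitochondrial nuclease gene, had 264.6 and 148.3 in treated cells, against 120.1 and 89.3 in control cells. PHR1, the photolyase, had 586.3 and 659.3 in treated cells, against 515.0 and 468.4 in control cells. Treated and control signals did not overlap in either gene, and PHR1 was higher on the treated B100 array than on the treated A100 array. RAD54, a recombination translocase, RAD16 and RAD7 of global nucleotide excision repair, RAD18 of postreplication repair and the DNA ligase CDC9 had log2 differences of 0.20 to 0.57 with overlapping groups. The treated A100 array was above both controls in these 5, and its difference was largest in CDC9 (210.4 and 65.4 in treated cells, against 88.4 and 68.9 in control cells).

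At the other end of the damage list stood DDI1, a ubiquitin-binding protein that shares its promoter region with MAG1. DDI1 had 858.1 and 1342.1 in treated cells, against 1729.0 and 2002.0 in control cells, a log2 fold change of -0.78 (SE 0.29). MAG1, the glycosylase that removes alkylated bases, had 309.3 and 384.4 in treated cells, against 438.4 and 423.6 in control cells. UBI4, the polyubiquitin gene, had 3730.6 and 3995.3 in treated cells, against 4973.6 and 4891.8 in control cells. Both treated arrays lay below both controls in these 3, as they did in the peroxiredoxin TSA1 (log2 difference -0.40) and in FMP52 (-0.41). RAD23 and RAD2 of nucleotide excision repair had -0.33 and -0.09 with overlapping groups, and DDR48, a stress protein gene, had -0.01, which became 0.10 after quantile normalization. A second DDR48 probe set had 6330.1 and 1605.7 in treated cells, against 1993.2 and 1680.1 in control cells, higher on the treated A100 array only.

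**Figure D3:**
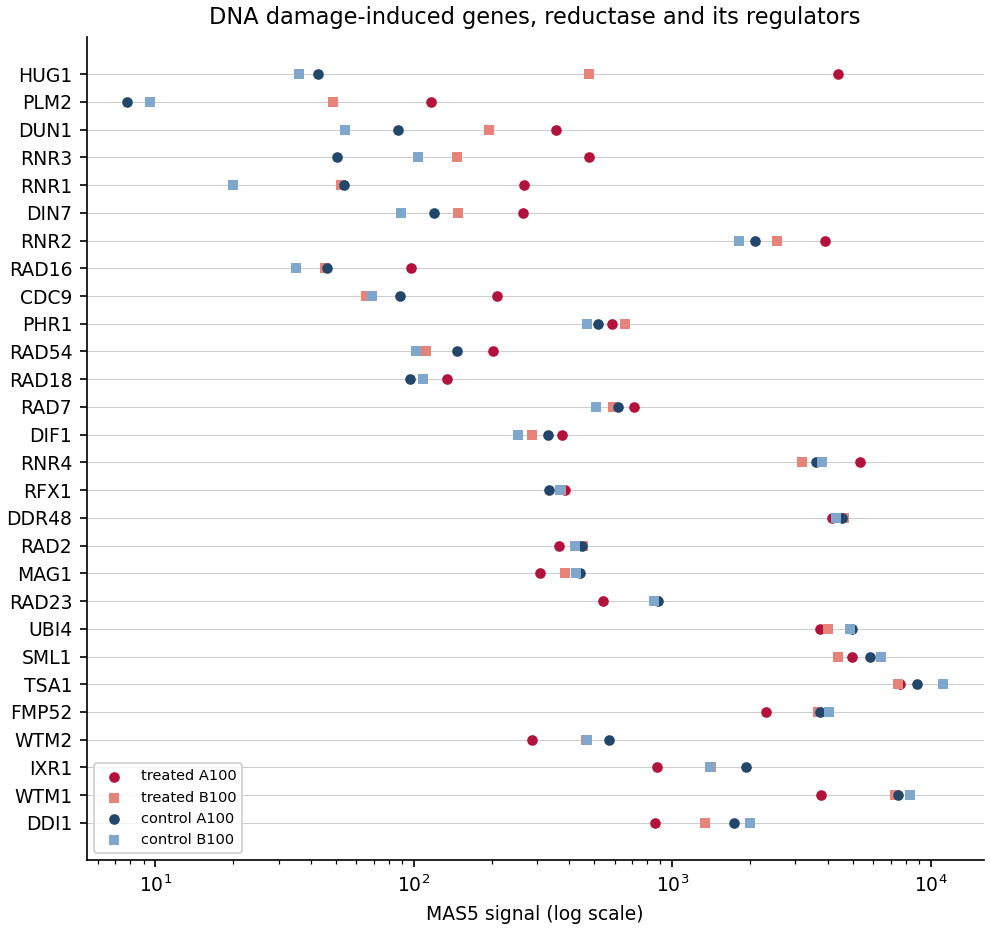
MAS5 signals on a log scale for the 28 genes of the DNA damage-induced and ribonucleotide reductase lists that were tested, ordered from the highest to the lowest mean log2 difference, with 1 point per treated array (reds) and 1 per control array (blues) and no error bars. HUG1, PLM2 and DUN1 at the top have both treated points clear of the controls, the genes between include both overlapping and separate points, and several at the lower end, DDI1 among them, have both treated points below.

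More genes of DNA replication lay above the controls than below. Of 29 tested, both treated arrays were above both controls in 17 and below both in 0, and the list's median was 0.88 (log2) on the treated A100 array and 0.21 on the treated B100 array. Besides POL30 and RFC5, the largest mean differences were those of DPB2 and MCM4. DPB2, a subunit of DNA polymerase epsilon, had 204.5 and 46.2 in treated cells, against 22.8 and 14.5 in control cells, with no overlap. On the control array titled 10 it had 50.5, above the treated B100 array. MCM4, a subunit of the replicative helicase, had 0.2 and 86.4 in treated cells, against 79.8 and 115.6 in control cells, and its probe set is among those numbered 7600 to 8500. Without that stretch the list's median difference was 0.54, against 0.50 with it. The list's median kept its sign under both other scalings.

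Of the checkpoint genes tested, only DUN1 was at least 2-fold above both controls on both treated arrays. The list had 17 genes measured and 14 tested. Both treated arrays were above both controls in 8 of the 14 and below both in 1. The list's median difference of 0.13 (log2) turned to -0.01 after scaling to a common median. RAD53, the kinase gene named above, was left out for low signals, with 42.2 and 23.0 in treated cells, against 3.5 and 12.7 in control cells. MRC1, an adaptor of the replication checkpoint, had 68.7 and 37.1 in treated cells, against 32.9 and 23.4 in control cells. TOF1, its partner at the fork, had 82.7 and 34.6 in treated cells, against 29.7 and 31.4 in control cells, and PDS1, the securin that holds cells before anaphase, had 47.0 and 50.9 in treated cells, against 35.4 and 23.1 in control cells. The groups did not overlap in the 3 genes, but their signals were low and their log2 differences 0.53 to 0.61. On the control array titled 10, MRC1 had 43.1 and TOF1 39.6, between their treated values, and PDS1 had 45.0, below both. TOF1 was at least 2-fold above both controls on the treated A100 array.

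Of 18 genes of recombination and crosslink repair, both treated arrays were above both controls in 8 (44.4%) and below both in 3 (16.7%). Over all genes these shares were 26.6% and 19.1%. SRS2, a DNA helicase, had 365.0 and 209.6 in treated cells, against 144.2 and 104.6 in control cells, a log2 difference of 1.08 (SE 0.34). RDH54, a translocase related to Rad54, had 148.8 and 85.0 in treated cells, against 64.1 and 75.9 in control cells. SGS1, the RecQ helicase, had 88.5 and 71.9 in treated cells, against 131.2 and 119.4 in control cells, and SLX4, a nuclease scaffold, had 63.4 and 60.5 in treated cells, against 121.9 and 74.5 in control cells. SRS2 and RDH54 were thus higher and SGS1 and SLX4 lower on both treated arrays than on the A100 and B100 controls. On the control array titled 10, SRS2 had 243.7 and RDH54 124.0, between their treated values. SGS1 had 69.5 there, below both treated values, and SLX4 had 70.6, above both.

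The cell cycle lists pointed different ways. Of 16 G1/S genes, both treated arrays lay above both controls in 10 and below both in 0, with a median of 1.29 (log2) on the treated A100 array and 0.38 on the treated B100 array. SWE1, the kinase that restrains the mitotic cyclin-dependent kinase, had 151.1 and 91.4 in treated cells, against 47.5 and 54.9 in control cells. NRM1, a repressor of the G1/S factor MBF, had 208.2 and 93.6 in treated cells, against 85.7 and 44.7 in control cells, and CDC21, thymidylate synthase, had 91.2 and 44.7 in treated cells, against 31.4 and 21.8 in control cells. The groups did not overlap in these 3. On the control array titled 10, SWE1 had 59.1 and NRM1 44.3, below both treated values, and CDC21 had 124.9, above both. Among the 16 G1/S probe sets, 4 are numbered 7600 to 8500, and without them the list's median difference was 0.66, against 0.79.

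Of 16 genes expressed at the M/G1 boundary, both treated arrays lay above both controls in 3 and below both in 6. ASH1, a repressor that acts in daughter cells, had 1313.2 and 2716.6 in treated cells, against 3743.9 and 3791.5 in control cells, a log2 difference of -0.99 (SE 0.37). EGT2, which acts in the separation of daughter cells, had 310.2 and 523.6 in treated cells, against 797.0 and 588.9 in control cells. PRY3, a cell wall protein of the same phase, had 380.3 and 646.7 in treated cells, against 1177.5 and 913.8 in control cells, and its groups, like those of ASH1 and EGT2, did not overlap. SCW11, a glucanase gene of the same phase, had a difference of 0.63 in the other direction.

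Cytosolic ribosomal protein genes formed the widest shift of any list with 5 or more tested genes. Of 76 genes listed, 51 were tested, fewer than the 74 tested genes with a ribosomal protein symbol. All 51 had a positive mean difference, and both treated arrays were above both controls in 42. On the treated A100 array 45 were at least 2-fold above both controls. The list's median was 1.88 (log2) on the treated A100 array and 0.53 on the treated B100 array. RPS9B at its brightest probe set had 2988.3 and 574.9 in treated cells, against 225.4 and 309.3 in control cells, and RPL21A had 4744.8 and 1298.3 in treated cells, against 487.6 and 746.2 in control cells. The groups did not overlap in either gene. On the control array titled 10, RPL21A had 4947.5, above both treated values. RPS9B had 2270.9 there and RPL24A 2936.5, between their treated values. The median difference over the list was 1.20 as deposited, 1.27 after quantile normalization and 1.01 after scaling to a common median.

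Ribosome biogenesis factors, which assemble those proteins with rRNA, differed from them on the B100 array. Of 45 tested, both treated arrays lay above both controls in 7 and below both in 1. The median was 0.97 (log2) on the treated A100 array and -0.03 on the treated B100 array, and 14 of the 19 genes at least 2-fold above both controls on the treated A100 array were not above both controls on the treated B100 array. DBP2, an RNA helicase, had 580.0 and 150.3 in treated cells, against 106.6 and 115.9 in control cells. NUG1, a nucleolar GTPase, had 471.9 and 132.8 in treated cells, against 75.7 and 117.3 in control cells. NOP58, a box C/D snoRNP protein, had 842.6 and 202.7 in treated cells, against 129.2 and 254.0 in control cells, where the treated B100 array lay between the controls, as it did in ERB1 (95.5 in treated B100 cells, between 54.6 and 117.7 in control cells). Further probe sets of NOP58 had 169.0 and 107.8 on the treated B100 array, against 148.6 and 105.8 on the higher control, so that array was slightly above the controls there. On the control array titled 10, NUG1 had 700.3 and ERB1 466.3, above both treated values. DBP2 had 374.8 and NOP58 645.0 on it, between their treated values.

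Purine and GTP synthesis genes, a list put together after values were seen that also holds the pyrimidine salvage gene FUR1, had the same split between the arrays. Of 18 tested, both treated arrays were above both controls in 8 and below both in 1, with a median of 0.88 (log2) on the treated A100 array and -0.0016 on the treated B100 array. IMD3, an IMP dehydrogenase gene, had 1715.8 and 603.9 in treated cells, against 447.0 and 395.3 in control cells. IMD2, its near-identical relative, had 1207.8 and 218.9 in treated cells, against 154.6 and 158.3 in control cells. FUR1, a uracil salvage enzyme, had 414.9 and 182.1 in treated cells, against 122.2 and 103.6 in control cells, while AAH1, adenine deaminase, had 136.8 and 16.3 in treated cells, against 24.2 and 13.4 in control cells, with overlapping groups. On the control array titled 10, FUR1 had 703.3, above both treated values. IMD3 had 1027.5 there, IMD2 309.8 and AAH1 92.0, between their treated values.

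Genes for the use of carbon sources other than glucose lay lower. In a list of 31 gluconeogenic, glyoxylate cycle and other non-fermentable carbon genes, both treated arrays lay below both controls in 24 and above both in 0. The list's median was -1.38 (log2) on the treated A100 array and -0.32 on the treated B100 array, and 19 of the 31 were at least 2-fold below both controls on the treated A100 array. MLS1, malate synthase of the glyoxylate cycle, had 263.3 and 4119.8 in treated cells, against 7220.0 and 10926.6 in control cells. SFC1, a mitochondrial succinate-fumarate carrier, had 155.5 and 1300.3 in treated cells, against 2471.8 and 3292.9 in control cells. YAT2, a carnitine acetyltransferase like YAT1, had 435.9 and 2349.0 in treated cells, against 2932.9 and 5365.0 in control cells. STL1, a glycerol transporter, had 31.8 and 302.4 in treated cells, against 394.6 and 439.7 in control cells. No groups overlapped in these 4 genes, and the treated A100 array lay 10 or more times below the lower control in MLS1, SFC1 and STL1, while the treated B100 array lay within 2-fold of it in all 4.

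The tricarboxylic acid cycle and the respiratory chain followed the same order of arrays. Of 16 cycle genes, both treated arrays lay below both controls in 8 and above both in 0, and of 35 respiratory chain and ATP synthase genes encoded in the nucleus, 18 lay below and 2 above. The medians of the lists were -0.76 and -0.57 (log2) on the treated A100 array and -0.12 and -0.09 on the treated B100 array. SDH1, a subunit of succinate dehydrogenase, had 1662.4 and 2501.1 in treated cells, against 3769.5 and 3455.5 in control cells, and ACO1, aconitase, had 2734.4 and 6784.5 in treated cells, against 8168.0 and 7249.0 in control cells. ATP2, the beta subunit of ATP synthase, had 3704.1 and 5002.9 in treated cells, against 6239.4 and 6979.7 in control cells. In these genes both treated arrays lay below both controls. After quantile normalization the treated B100 medians of both lists came to 0.01 and 0.0045, so only the treated A100 medians kept their sign. Of 13 genes encoded in mitochondrial DNA, OLI1 and COX1 passed the filter on low signals.

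Hexose transporter genes set the treated A100 array apart. HXT2, a glucose transporter, had 4026.7 and 96.8 in treated cells, against 77.0 and 60.4 in control cells. HXT3 had 1651.7 and 155.5 in treated cells, against 144.2 and 111.1 in control cells, and HXT4 had 1926.5 and 124.6 in treated cells, against 169.8 and 99.0 in control cells. All 3 were far above the controls on the treated A100 array and near them on the treated B100 array. HXT5, a transporter of slow growth, had 1923.6 and 6128.3 in treated cells, against 6140.5 and 8058.9 in control cells, and on the B100 array it was barely under the lower control. The 14 tested genes of hexose transport and sensing had a median difference of 0.08 (log2), which turned to -0.09 after scaling to a common median.

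**Figure D4:**
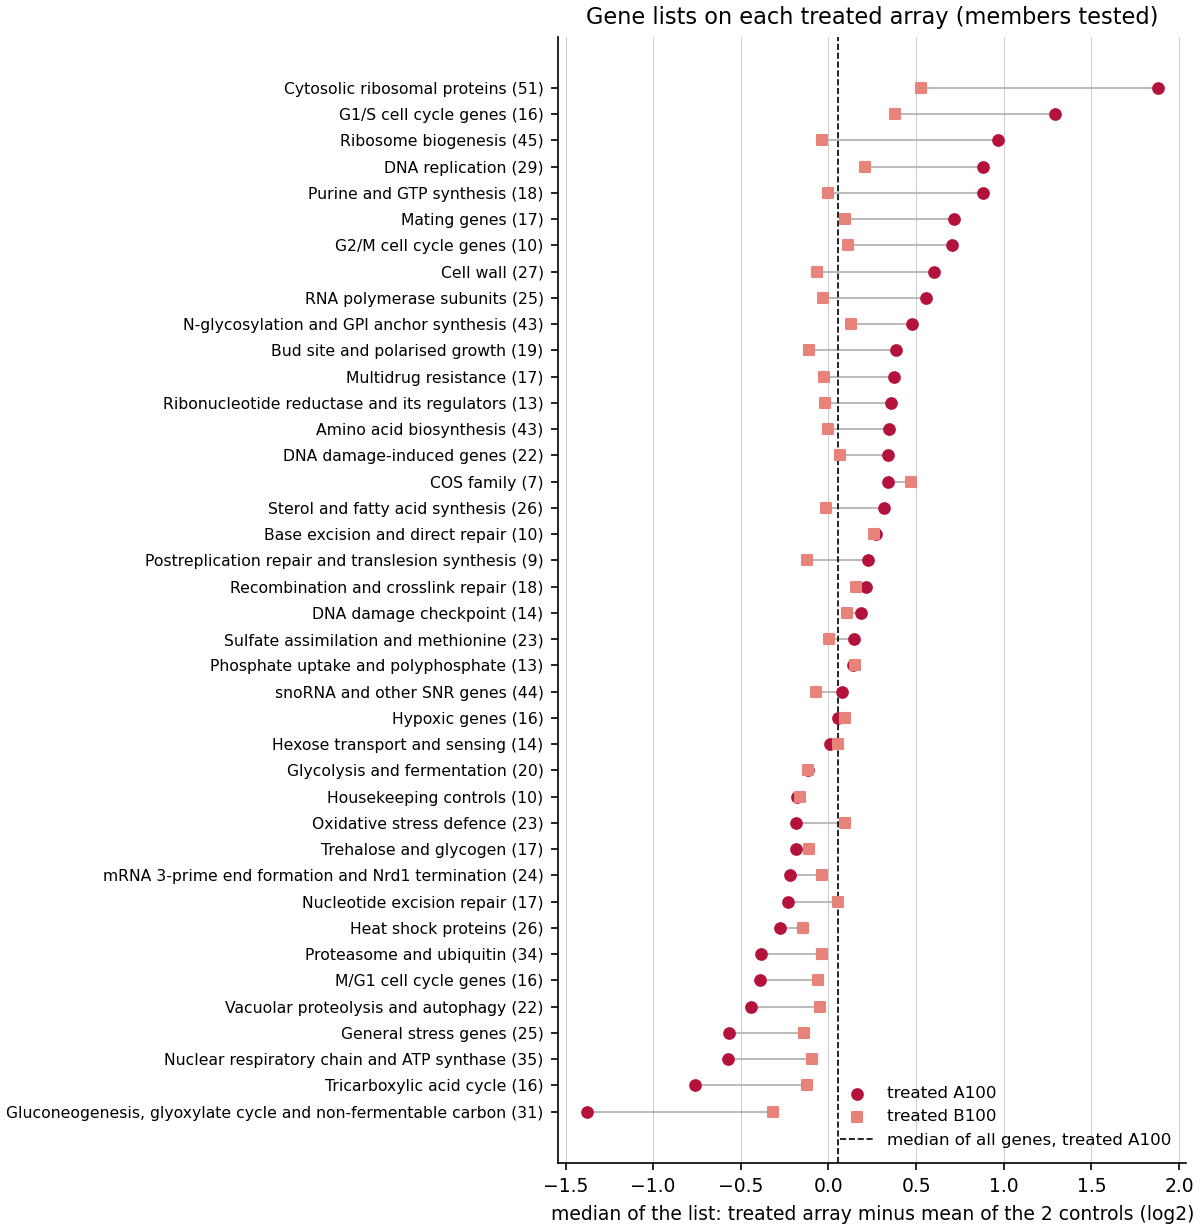
Median difference of each gene list from the mean of the 2 controls, in log2 units of signal + 16, on the treated A100 array (circles) and the treated B100 array (squares), for lists with 5 or more tested genes, whose number is in brackets; the dashed line marks the median of all genes on the treated A100 array, and no error bars are drawn. Ribosomal protein genes lie at the high end and genes for non-fermentable carbon at the low end on both arrays, and for most lists the treated B100 median lies nearer 0.

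Heat shock and general stress genes lay somewhat lower. Of 26 heat shock protein genes, both treated arrays were below both controls in 13 and above both in 2, with medians of -0.28 (log2) on the treated A100 array and -0.15 on the treated B100 array. The list's median difference was -0.22 as deposited and -0.03 after quantile normalization, where the medians on the treated A100 and B100 arrays were -0.0001 and 0.0030. HSP82, a stress-induced Hsp90 chaperone, had 1844.3 and 7666.4 in treated cells, against 8583.6 and 10049.0 in control cells, though its probe set is among those numbered 7600 to 8500. SSA3, a stress-induced Hsp70, had 3497.7 and 5869.2 in treated cells, against 5695.1 and 7620.6 in control cells, with overlapping groups. Of 25 general stress genes, 13 lay below both controls on both arrays and 0 above. The medians were -0.57 (log2) on the treated A100 array and -0.14 on the treated B100 array. After quantile normalization they were -0.29 and 0.015, so only the treated A100 median kept its sign. NCE103, carbonic anhydrase, had 598.4 and 2647.0 in treated cells, against 3214.6 and 3937.5 in control cells, and SIP18, a desiccation protein, had 2009.9 and 8345.2 in treated cells, against 8828.2 and 9107.5 in control cells. DCS2 and GRE1, the others with large differences, are also numbered 7600 to 8500.

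Cell wall genes lay on both sides of the controls. Of 27 cell wall genes, both treated arrays lay above both controls in 6 (22.2%) and below both in 6 (22.2%), beside 26.6% and 19.1% of all genes. The list had medians of 0.60 (log2) on the treated A100 array and -0.06 on the treated B100 array. The median difference of 0.20 came to 0.005 after scaling to a common median. SLT2, the kinase of the cell wall integrity pathway, had 623.4 and 288.6 in treated cells, against 157.3 and 174.9 in control cells. CIS3, a wall glycoprotein, had 7807.2 and 3629.9 in treated cells, against 2470.5 and 1974.5 in control cells, and CHS3, the main chitin synthase, had 624.8 and 214.1 in treated cells, against 160.2 and 129.3 in control cells. SCW10, a wall glucanase, had 1729.0 and 262.0 in treated cells, against 230.3 and 180.4 in control cells. These 4 genes had the largest differences, and at these probe sets all treated signals were above the A100 and B100 controls. On the control array titled 10, SLT2 had 484.2, CIS3 7397.5, CHS3 230.2 and SCW10 1088.5, between their treated values. A second probe set of SCW10 had 154.2 and 44.5 in treated cells, against 30.9 and 60.2 in control cells, with the treated B100 array between the controls. The 6 genes below both controls on both arrays had log2 differences of -0.07 to -0.45.

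Of 17 mating genes, both treated arrays lay above both controls in 7 and below both in 1. MF(ALPHA)2, the minor alpha pheromone gene, had 3975.3 and 602.6 in treated cells, against 434.4 and 265.2 in control cells. MFA1, an a-factor gene that alpha cells keep low, had 539.5 and 65.3 in treated cells, against 19.3 and 40.5 in control cells, but its probe set carries the suffix f and its other one had 68.1 and 47.8 in treated cells, against 54.6 and 30.1 in control cells. BAR1, the a-cell protease that degrades alpha factor, had 95.5 and 32.4 in treated cells, against 16.9 and 13.3 in control cells, and AGA2, an a-agglutinin subunit, had 142.0 and 30.3 in treated cells, against 25.1 and 22.0 in control cells. In these 4 genes both treated arrays were above both controls. Of the 7 a-cell markers, both treated arrays were above both controls in 5 and 0 were at a signal of 0, and STE2 and STE6 had overlapping groups. Their signals summed to 1170.1 and 423.6 in treated cells, against 317.6 and 298.7 in control cells, while those of the 5 alpha-cell markers summed to 16069.2 and 12589.9 in treated cells, against 13067.4 and 14029.9 in control cells. Whether a-type cells or shared probes had a part in these values was not tested.

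Bud site and polarised growth genes had 4 of 19 (21.1%) above and 2 below both controls on both arrays, no larger a share above than the 26.6% of all genes. RSR1, the bud site GTPase, had 406.3 and 72.2 in treated cells, against 31.7 and 52.9 in control cells. SPH1, a polarity scaffold, had 154.7 and 36.0 in treated cells, against 7.4 and 19.2 in control cells, and GIC1, an effector of the polarity GTPase Cdc42, had 78.7 and 35.9 in treated cells, against 22.5 and 16.9 in control cells. These 3 genes had non-overlapping groups with low control signals, and the list's median of 0.16 (log2) was -0.0017 after scaling to a common median.

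A list of N-glycosylation and anchor synthesis genes and a list of mRNA 3' end factors were put together after values were seen. Of 43 glycosylation and anchor genes, both treated arrays were above both controls in 19 and below both in 2, with medians of 0.48 (log2) on the treated A100 array and 0.13 on the treated B100 array. OST2, a subunit of oligosaccharyltransferase, had 333.8 and 189.4 in treated cells, against 95.0 and 98.9 in control cells. ALG7, which starts the lipid-linked sugar chain, had 219.3 and 122.0 in treated cells, against 70.2 and 78.6 in control cells. Both had non-overlapping groups. Of 24 genes of 3' end formation and Nrd1-dependent termination, 3 (12.5%) lay above and 5 (20.8%) below on both arrays. Over all genes the shares were 26.6% above and 19.1% below, so the share below was close to that of all genes. NRD1, which binds nascent RNA to end short transcripts, had 95.9 and 204.3 in treated cells, against 480.1 and 341.4 in control cells, a log2 difference of -1.42 (SE 0.39), and RNA14, a partner of HRP1 in cleavage factor I, had 31.0 and 52.7 in treated cells, against 80.9 and 75.7 in control cells.

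Most of the other lists had members on both sides of the controls, beside 26.6% above and 19.1% below over all genes. Both treated arrays lay above and below both controls in 14 and 7 of 43 amino acid synthesis genes, 7 and 7 of 23 sulfate and methionine genes, 6 and 7 of 26 sterol and fatty acid genes, 7 and 6 of 23 oxidative stress genes, and 6 and 6 of 17 multidrug resistance genes. Genes of trehalose and glycogen (0 above and 9 below of 17), vacuolar proteolysis (2 and 10 of 22), the proteasome (1 and 14 of 34) and glycolysis (2 and 9 of 20) had more members below, at median differences of -0.23, -0.25, -0.22 and -0.09 (log2). After quantile normalization these medians were -0.09, -0.24, -0.23 and 0.03, and after scaling to a common median -0.42, -0.44, -0.41 and -0.28. Nucleotide excision repair genes had 2 above and 3 below of 17. Base excision and direct repair genes had 6 above and 1 below of 10 (median difference 0.30), and phosphate uptake genes 6 and 3 of 13. The COS family, listed after values were seen, had 3 above and 0 below of 7, with medians of 0.34 on the treated A100 array and 0.47 on the treated B100 array beside a control A100 minus control B100 median of 0.41. G2/M genes had 2 above and 0 below of 10, RNA polymerase genes 7 and 3 of 25, hypoxic genes 6 and 4 of 16, postreplication repair genes 0 and 2 of 9, histone genes 1 and 2 of 4, and small nuclear and nucleolar RNA genes 8 and 9 of 44. The 10 housekeeping genes had 3 above and 4 below, with a median of -0.18. That median was -0.02 after quantile normalization and -0.37 after scaling to a common median.

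Genes high on the treated A100 array alone rest on 1 array. Among the 149 probe sets at least 2-fold above both controls there and not above both on the treated B100 array, 13 of the 130 named genes were ribosomal protein genes by symbol, counting any probe set, beside 74 of all 5135 genes. By the brightest probe set, 7 of the 51 genes of the ribosomal protein list were in this class. HXT4, given above, had the widest distance. SNR72, a box C/D small nucleolar RNA gene, had 674.1 and 85.5 in treated cells, against 84.6 and 86.3 in control cells. PRM7, a pheromone-regulated gene, had 303.9 and 34.6 in treated cells, against 35.4 and 27.2 in control cells, and EMG1, an rRNA methyltransferase, had 242.4 and 31.4 in treated cells, against 33.3 and 34.9 in control cells. GAS1, a wall glucanosyltransferase, had 4399.7 and 944.8 in treated cells, against 1076.0 and 908.0 in control cells. In each of these the treated A100 signal was 3 or more times any other, and the other 3 arrays lay close together. RPL14A and RPL6B had the same form, with treated A100 signals of 4005.9 and 1439.1. RPS1B had 2724.2 and 499.1 in treated cells, against 257.0 and 604.9 in control cells, so its controls differed more than 2-fold.

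Low values on the treated A100 array alone gathered in a narrow stretch of the array design. Of 736 tested probe sets numbered 7600 to 8500, 34 (4.62%) were at least 4-fold below both controls on the treated A100 array, against 22 of 6220 (0.354%) elsewhere. The limits of the stretch were chosen from these values, so the contrast is a description. On the treated B100 array the counts were 0 and 1. At 20 of the 34 the treated B100 array was not below both controls, and outside the stretch this occurred at 0 probe sets. Of the 103 probe sets at least 2-fold below on the treated A100 array only, 50 lie in this stretch, against 16 of the 149 above. Numbers follow the genome in part, and 31 of the 50 have a locus tag on chromosome XVI, as do 351 of the 736 tested probe sets of the stretch. What sets the stretch apart was not tested.

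**Figure D5:**
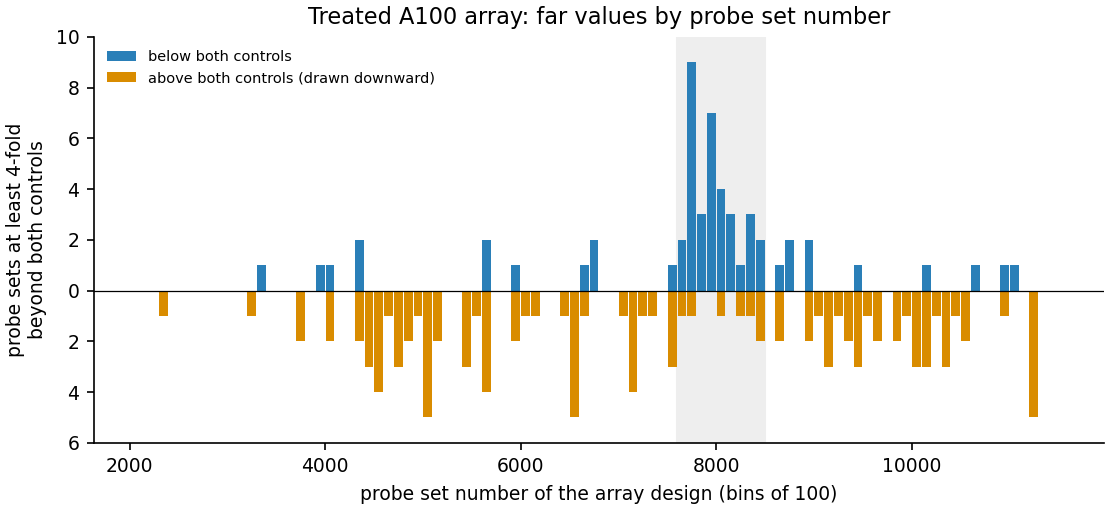
Number of probe sets at least 4-fold below both controls (bars upward) and at least 4-fold above both controls (bars downward) on the treated A100 array, in bins of 100 probe set numbers of the array design; the grey band marks numbers 7600 to 8500. The downward bars are spread over the design, while the upward bars are gathered in the grey band, which holds 34 such probe sets among 736.

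The 8 genes with the widest distance below on the treated A100 array alone all lie in that stretch. HST2, a sirtuin deacetylase gene, had 5.5 and 1163.9 in treated cells, against 982.6 and 1074.1 in control cells. GRS2, a second glycyl-tRNA synthetase gene, had 2.8 and 593.4 in treated cells, against 609.3 and 550.0 in control cells, and TCO89, a TORC1 subunit, had 24.4 and 798.3 in treated cells, against 789.2 and 818.4 in control cells. The others, YPL113C, MED4, CAM1, MRPS16 and SNR5, had treated A100 signals of 4.7 to 90.9. In these 8 genes the treated B100 array lay close to the controls.

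Outside the stretch the distances were smaller, and 53 probe sets remained. YGR067C, a zinc finger protein gene, had 413.3 and 1522.7 in treated cells, against 1812.2 and 1392.6 in control cells. PAI3, an inhibitor of vacuolar protease A, had 1235.5 and 4108.1 in treated cells, against 4065.0 and 4699.6 in control cells, and CHA1, a serine deaminase, had 260.5 and 877.9 in treated cells, against 916.0 and 771.1 in control cells. BLM10, an activator of the proteasome, had 299.0 and 892.7 in treated cells, against 823.1 and 1319.3 in control cells. The treated A100 array was the lowest of the 4 in each of them and the treated B100 array lay between the controls.

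Very few probe sets stood apart on the treated B100 array alone. At 1 probe set (0.0144%) that array was at least 2-fold above both controls with the treated A100 array not above, and at 5 (0.0719%) it was below in the same way. The first belongs to NUM1, a cortical anchor of the mitotic spindle and mitochondria, with 50.1 and 182.0 in treated cells, against 54.6 and 59.4 in control cells. Its brightest probe set had 658.8 and 1027.4 in treated cells, against 1268.8 and 1418.8 in control cells, so the probe sets of NUM1 disagree in direction. Of the 5 below, 4 carry the suffix f for shared probes and 3 have no gene name. YER188C-A had 85.6 and 22.4 in treated cells, against 103.1 and 78.5 in control cells, and YGR109W-B, a Ty3 retrotransposon reading frame, had 115.7 and 19.8 in treated cells, against 85.1 and 64 in control cells.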

How the data were processed

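The deposited values are intensity values, 1 linear signal per probe set and array, computed by the authors in MAS5 (per the submitters' processing notes). Version and settings of MAS5 were not stated. The trimmed mean (2%) of all signals came to 500.3 to 500.4 on the 4 arrays, so values were used as deposited. Of 9335 probe sets, 60 controls of the manufacturer and the 25% with the lowest mean log2 signal were left out, which left 6956, of which 5635 had 1 gene name in the platform annotation, 284 several and 1037 none. The brightest probe set stood for a gene with several, which gave 5135 genes. Each value was analysed as log2(signal + 16), so fold changes of low signals are understated.

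limma 3.58.1 in R 4.3.3 fitted 2 treated against 2 control arrays (2 residual degrees of freedom) with a variance trend, two-sided moderated tests and Benjamini-Hochberg adjustment over all 6956 probe sets at a threshold of 0.05. Classes of both arrays or 1 array are counts with a distance of 1 on the log2 scale. Genes named were, with 1 gene name and by their brightest probe set, the 12 widest distances each way for both arrays, 8 each way for the A100 array only and 5 each way for the B100 array only, all tested members of the damage and reductase lists, and up to 4 members of each other list described with the largest difference, plus those at 2-fold. The stretch of 7600 to 8500 and the genes outside it, those of like change on both arrays, other probe sets and the values on the arrays titled 10 were added after values were seen. The members and lists were chosen with earlier results of these data known. The labels do not state whether the shared letters A and B pair the arrays, and they were not taken as pairs. A100 minus B100 correlated at -0.07 between treated and control arrays. This cannot settle the matter, since the outlying treated A100 array could hide a shared effect. Alternatives were quantile normalization, scaling to 1 median, a pseudocount of 1 or 64, no filter or 50% left out, no variance trend, a threshold of 0.10, all 6 arrays in 1 fit, the letter as a block, each array left out, and leaving out numbers 7600 to 8500. With 2 arrays a group, their number limits the precision.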

Additional observations from a re-analysis of the deposited data

Results flagged for a closer look

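HUG1 had a signal of 1109.8 on the treated array titled 10, which is in neither group of the main comparison. It had 52.1 on the control array titled 10 and 42.7 and 36.1 on the A100 and B100 controls. It was the only 1 of the 16 probe sets at least 2-fold above on both 100 µg/ml arrays that was also at least 2-fold above all 3 controls on that array, and of the 9 probe sets below, 0 were at least 2-fold below all 3 controls there.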

How the results depend on the processing

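The number past an adjusted p of 0.05 was 0 in every alternative run, a threshold of 0.10 included, except without the treated B100 array, where it was 1129 (0 to 1129 over arrays left out); the count at an unadjusted p under 0.05 was 96 to 2282 over arrays left out. With the letter A or B as a replicate block, 494 probe sets had an unadjusted p under 0.05, against 432 without it, and 0 passed adjustment, so the block changed no call. The number of probe sets 2-fold above on both arrays was 10 after quantile normalization and 9 after median scaling. It was 29 and 5 with pseudocounts of 1 and 64, 9 with the lowest 50% left out, and 59 to 89 over controls left out. The number 2-fold below on both was 5 with a pseudocount of 64 and 25 with either control left out. Leaving out a treated array leaves only 1, so the counts are then of that array alone. They were 22 above and 15 below for the treated B100 array, and 571 and 275 for the treated A100 array. For the A100 array only, the number above was 99 after median scaling, 78 with a pseudocount of 64 and 80 with 50% left out, and the number below was 60 with a pseudocount of 64 and 53 without numbers 7600 to 8500. For the B100 array only, the number above was 3 after either scaling, 0 with a pseudocount of 64 or 50% left out and 3 to 11 over controls left out, and the number below was 9 and 3 with pseudocounts of 1 and 64, 3 with 50% left out and 8 to 10 over controls left out. Fewer controls to exceed, fewer treated arrays required to lie beyond them, or fewer probe sets tested raise or lower such counts by construction. The cause was not tested otherwise.

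In each setting in which it was tested, a named gene kept the sign of its mean log2 difference (152 genes, but 117 with 50% left out, 127 without numbers 7600 to 8500 and 150 with a pseudocount of 1), except RNR4 (-0.033), RFX1 (-0.082) and DIF1 (-0.016) after median scaling and DDR48 (0.10) after quantile normalization. With arrays left out, 22 signs turned, all without the treated A100 array, DDR48 also without the control A100 array and DIF1 also without the control B100 array. The ranges over arrays left out were -0.056 to 3.73 for HXT4, -0.080 to 2.37 for EMG1, -0.060 to 2.25 for RPL14A, -0.17 to 2.14 for RPL6B, -0.064 to 2.14 for GAS1, -5.60 to 0.18 for HST2, -4.98 to 0.035 for GRS2, -4.17 to 0.042 for YPL113C, -4.04 to 0.20 for MED4, -4.11 to 0.13 for CAM1, -3.70 to 0.19 for MRPS16, -3.49 to 0.12 for SNR5, -1.61 to 0.40 for YNR071C, -1.63 to 0.062 for CHA1, -0.21 to 0.53 for RNR4, -0.12 to 0.66 for RAD54, -0.089 to 0.069 for DDR48, -0.23 to 0.057 for RAD2, -0.21 to 1.27 for CDC9, -0.0196 to 0.36 for DIF1, -2.34 to 0.15 for ATP20 and -0.09 to 2.15 for AAH1. Signals near the floor of the arrays limit what low genes can show.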
